A study of Rattus norvegicus with 12 samples.

Results

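The genes described here are the plasma membrane and lysosomal amino acid transporters of rat epididymal white fat, a visceral depot that lies beside the epididymis. They were taken by name: every probe set with a single platform gene symbol that began Slc1a, Slc3a, Slc6a, Slc7a, Slc36a, Slc38a or Slc43a followed by a digit. This gave 55 genes of the 14506 tested, each on 1 probe set of its own. The study placed 12 male Sprague-Dawley rats in 3 groups of 4: fed rats, rats fasted until phase 2 and rats fasted until phase 3. The length of the fasts was not given in the sources used here, and the labels name no transgene or drug in any group. Each rat had 1 Affymetrix Rat Gene 1.0 ST array with no technical replicate. The p-values below therefore rest on the spread between rats, from which the spread between arrays cannot be separated.

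Amino acids cross membranes on carriers that differ in substrate and in driving force. Some import with sodium or protons, some only exchange one amino acid for another, and the light chains of family 7 reach the cell surface only when joined by a disulphide bridge to a heavy chain of family 3. In a long fast phase 2 is the period in which fat is the main fuel and protein is spared, and phase 3 is the late period in which breakdown of body protein rises. White fat takes up amino acids for lipid and protein synthesis and releases glutamine and alanine.

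The symbol rule also took genes that are not amino acid carriers. Slc6a2, Slc6a3 and Slc6a4 carry monoamines, Slc6a8 carries creatine, Slc6a11 and Slc6a13 carry GABA, Slc6a6 carries taurine, and Slc43a3 is known as a carrier of purine nucleobases. Slc7a6os is a neighbour of Slc7a6 and not a carrier at all. These genes are reported with the others and named for what they are.

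Some features of the arrays bear on the results. Group means of 21 of the 55 genes lay in every group below 5.658 on the log2 scale, the 95th percentile of the mean levels of 53 olfactory receptor genes, which are taken as mostly silent in fat, so for those 21 a level above background was not shown. The array of phase 3 rat 3 stood apart among dim genes: it was the highest of the 12 in 47.3% of the 4618 genes of the whole table that lay below the same level, and in 15 of these 21. The tissue label was checked with markers. The mean level of Adipoq, which encodes adiponectin, was 13.15 for fed rats, 13.09 for phase 2 and 11.63 for phase 3, while the rats' means over 10 hepatocyte markers lay between 4.32 and 4.77 and over 10 epididymis and testis markers between 3.98 and 4.39. Among the hepatocyte markers Alb, which encodes albumin, stood apart with means of 8.33 for fed rats, 9.62 for phase 2 and 6.73 for phase 3, and the group means of the other 9 lay at or below 5.76. Among the epididymis and testis markers Prm1 had group means of 6.56 to 6.72. Lcn5 stood at 6.11 in phase 3 rat 1, where the other phase 3 rats had 3.63 to 4.09. Adipocyte markers were lower in phase 3 than in fed rats for 10 of 12 genes and higher for 1, and the rats' means over that list were 10.15 to 10.91 in phase 3 and 11.93 to 12.02 in fed rats. Fibroblast and progenitor markers were lower for 9 of 11 and higher for 1, with means of 8.38 to 8.93 in phase 3 and 10.22 to 10.39 in fed rats. Smooth muscle and pericyte markers were higher than in fed rats for 8 of 10 genes in phase 2 and 7 of 10 in phase 3, with 1 lower in each and median differences of 0.77 and 0.87. Endothelial markers were higher for 6 of 9 in phase 2 and 4 of 9 in phase 3. Mesothelial markers were lower for 5 of 6 in phase 2 and 4 of 6 in phase 3, with median differences of -0.72 and -1.26. In whole tissue, fewer cells of a type and less RNA per cell cannot be told apart, and the part of cell composition in the results below was not tested.

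Amino acid transporter genes moved in both directions during the fast. Differences are given as the fasted group minus its comparison group, on the log2 scale, followed by the standard error (SE) from the linear model, and a gene was called at a Benjamini-Hochberg adjusted p below 0.05 over all genes tested (limma). In phase 2 against fed rats 8 genes rose and 8 fell, which is 29.1% of the 55, where 25.2% of all genes were called, 9.66% as higher and 15.5% as lower. In phase 3 against fed rats 19 rose and 9 fell, or 50.9%, where 45.4% of all genes were called, 21.1% as higher and 24.3% as lower. Between the fasting phases, 12 were higher and 8 lower in phase 3 than in phase 2, or 36.4%, where 27.9% of all genes were called, 12.8% as higher and 15.1% as lower. Differences of at least 2-fold among called genes were seen for 4 of the 55 in phase 2 against fed, 11 in phase 3 against fed and 5 in phase 3 against phase 2, where the whole table had 2.98%, 9.51% and 3.6%. The 4 rats of one group did not overlap with those of the other for 17 of the 55 in phase 2 against fed, 26 in phase 3 against fed and 17 in phase 3 against phase 2, where the whole table had 31.0%, 41.9% and 26.3%. The median difference over the 55 genes was 0.03, 0.12 and 0.11 in the same comparisons, and over all genes 0.01, 0.05 and 0.03. Both comparisons with fed rats use the same 4 fed arrays.

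The split between rises and falls moved with the scaling. The median array level over the tested genes differed by -0.065 between phase 2 and fed rats, by -0.155 between phase 3 and fed rats and by -0.09 between phase 3 and phase 2 rats. With each array centred on its median, 13 of the 55 rose and 7 fell in phase 2, 28 rose and 9 fell in phase 3 against fed, and 19 were higher and 6 lower in phase 3 than in phase 2. With quantile normalisation 12 rose and 7 fell in phase 2, and with cyclic loess 11 and 7. The count of 8 rises in phase 2 was 5 without fed rat 3, without fed rat 4 or without phase 2 rat 1. No called gene changed its direction in any of the 21 alternatives run.

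**Figure D1:**
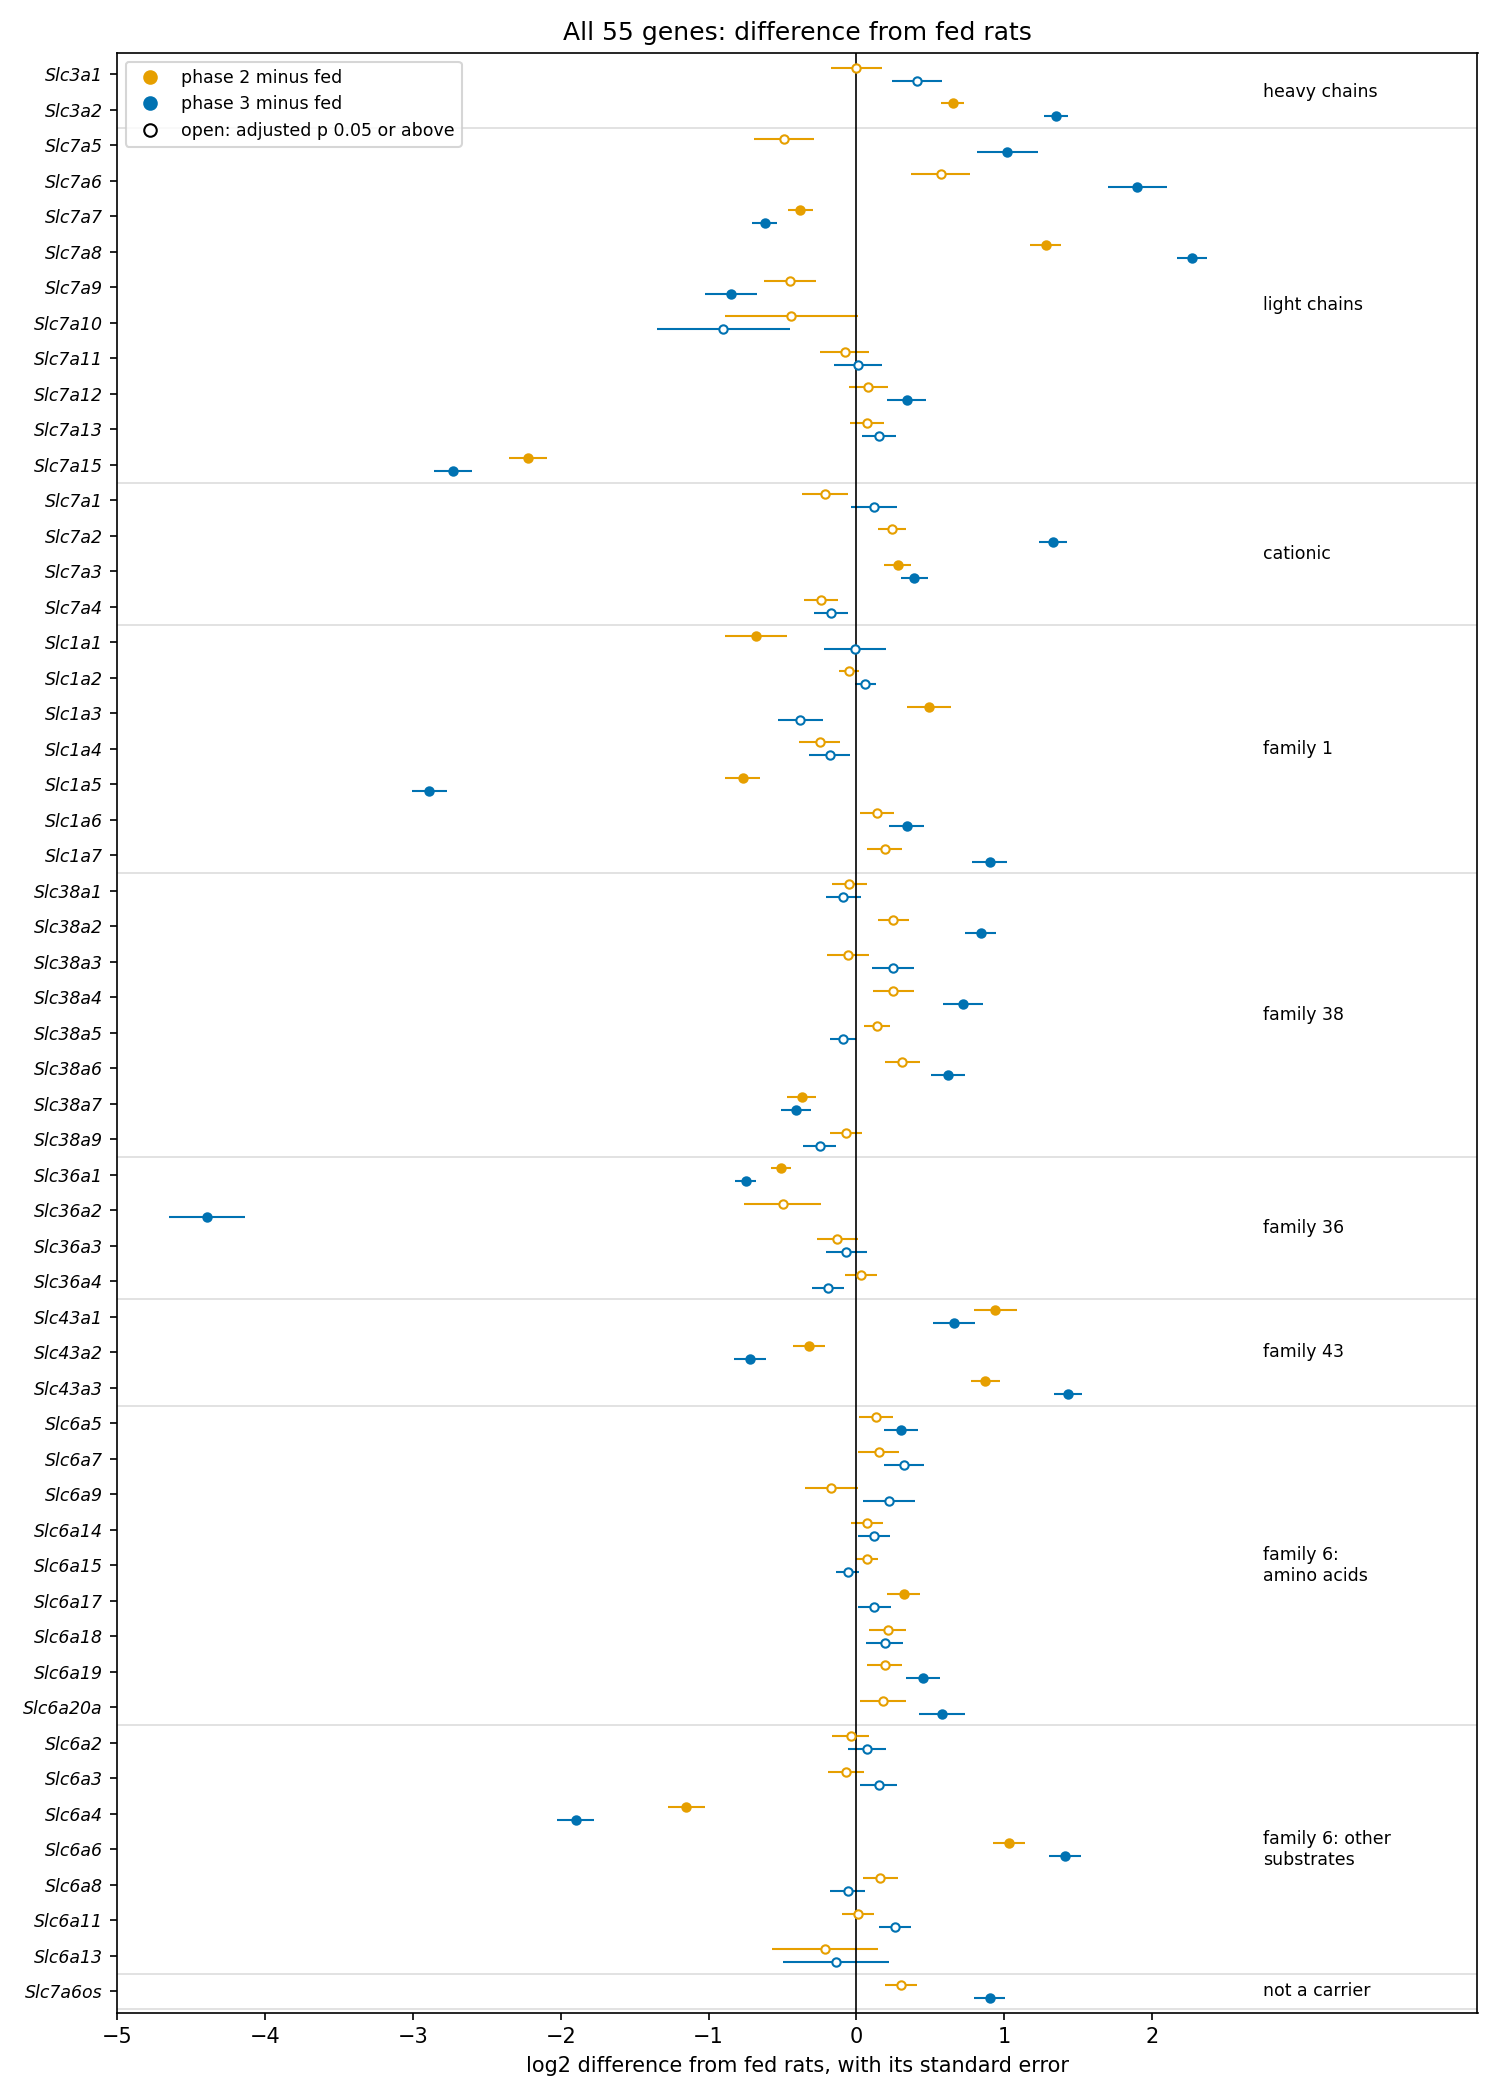
Differences of the 55 genes from fed rats on the log2 scale, phase 2 in orange and phase 3 in blue, with the standard error of the model as bars and open symbols for genes not called. Slc36a2, Slc1a5 and Slc7a15 lie farthest to the left in phase 3, at -4.39, -2.89 and -2.73 (Slc36a2 measured down to the background level), and Slc7a8 and Slc7a6 farthest to the right, at 2.27 and 1.90.

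The heavy chain and 3 of its partners were higher in phase 3. Slc3a2, the heavy chain 4F2hc that carries most light chains of family 7 to the surface, had log2 levels of 10.71, 10.78, 10.71 and 10.53 in the fed rats, 11.30, 11.30, 11.45 and 11.28 in phase 2 and 11.97, 12.12, 11.96 and 12.08 in phase 3. The groups did not overlap at either step. Slc3a2 rose by 0.65 ± 0.079 (SE) in phase 2 against fed (adjusted p = 4.61e-05) and by 1.35 ± 0.079 in phase 3 against fed (adjusted p = 9.41e-09), which was 2.55-fold, and it was 0.70 ± 0.079 higher in phase 3 than in phase 2 (adjusted p = 1.77e-05). The other heavy chain, Slc3a1, which pairs with Slc7a9 in kidney and gut, was among the dim genes and passed in no comparison.

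Slc7a8, the exchanger LAT2 for small and large neutral amino acids, had the highest rise of the 55 genes in both comparisons with fed rats. It stood at 8.86, 8.87, 8.89 and 8.55 in the fed rats, 9.94, 10.22, 10.17 and 9.97 in phase 2 and 11.22, 11.09, 10.88 and 11.08 in phase 3, again with no overlap. Its differences were 1.28 ± 0.104 in phase 2 against fed (2.44-fold, adjusted p = 1.43e-06), 2.27 ± 0.104 in phase 3 against fed (4.84-fold, adjusted p = 1.08e-09) and 0.99 ± 0.104 in phase 3 against phase 2 (adjusted p = 9.44e-06).

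Slc7a6, the exchanger y+LAT2 of cationic for neutral amino acids, was at 9.38, 9.05, 8.74 and 8.67 in the fed rats, 9.29, 9.69, 9.04 and 10.09 in phase 2 and 10.77, 10.84, 10.82 and 11.03 in phase 3. Fed and phase 2 rats overlapped, and the phase 2 difference of 0.57 ± 0.20 had an adjusted p of 0.0513, which ran from 0.0137 to 0.153 across alternatives and passed in 6. All 4 phase 3 rats lay above the other 8, by 1.90 ± 0.20 against fed (3.74-fold, adjusted p = 2.58e-06) and by 1.34 ± 0.20 against phase 2 (adjusted p = 0.000194). The neighbouring gene Slc7a6os was at 7.57, 7.40, 7.50 and 7.45 in the fed rats, 7.71, 7.81, 7.70 and 7.90 in phase 2 and 8.25, 8.66, 8.13 and 8.49 in phase 3. It rose too, by 0.90 ± 0.106 in phase 3 against fed (adjusted p = 7.64e-06).

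Slc7a5, the exchanger LAT1 that takes up leucine and other large neutral amino acids, was called higher in phase 3 and was not called in phase 2 against fed. Levels were 6.54, 6.75, 6.37 and 6.61 in the fed rats, 6.09, 5.83, 6.11 and 6.31 in phase 2 and 6.92, 7.40, 8.00 and 8.04 in phase 3. All phase 2 rats lay below all fed rats, but the difference of -0.49 ± 0.205 had an adjusted p of 0.103 and passed in 2 of 21 alternatives, without phase 3 rat 1 and in a fit of only these groups. Phase 3 rats lay above both other groups, by 1.02 ± 0.205 against fed (2.03-fold, adjusted p = 0.000889) and by 1.51 ± 0.205 against phase 2 (2.85-fold, adjusted p = 8.74e-05).

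**Figure D2:**
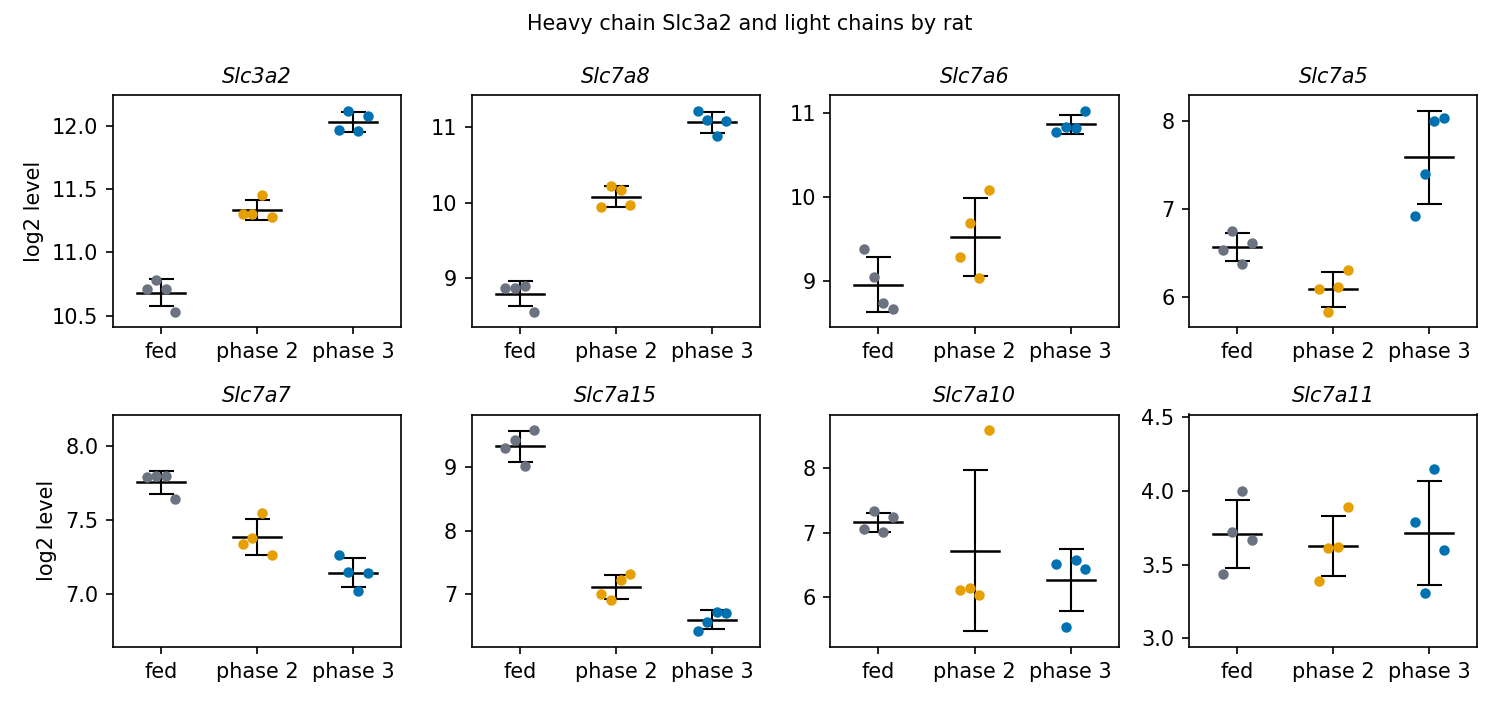
Log2 levels of the heavy chain Slc3a2 and 7 light chains in fed, phase 2 and phase 3 rats. Points are the 4 rats of each group, horizontal lines their mean and bars the SD. Slc3a2 and Slc7a8 climb at each step, Slc7a15 drops mostly in phase 2, and 1 phase 2 rat of Slc7a10 stands at 8.59 apart from its group.

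Other light chains were lower. Slc7a15, known from the mouse as a transporter that prefers aromatic amino acids, was at 9.30, 9.42, 9.01 and 9.58 in the fed rats, 7.00, 6.91, 7.23 and 7.32 in phase 2 and 6.42, 6.56, 6.73 and 6.71 in phase 3. It fell by 2.22 on the log2 scale, ± 0.127, in phase 2 against fed (4.65-fold, adjusted p = 6.77e-08), and the phase 3 rats were lower again than the phase 2 rats (-0.51 ± 0.127, adjusted p = 0.00799). Slc7a7, the y+LAT1 exchanger that is known from gut, kidney and macrophages, fell by 0.38 ± 0.0839 in phase 2 against fed (adjusted p = 0.00425) and by 0.62 ± 0.0839 in phase 3 against fed (adjusted p = 2.94e-05). Its call in phase 3 against phase 2 (-0.24, adjusted p = 0.0459) ended in 17 of 21 alternatives (adjusted p up to 0.16), including the removal of any 1 of the fed rats, of phase 2 rats 1, 2 and 3 or of phase 3 rats 2, 3 and 4. Of 12 macrophage markers, 4 were higher and 5 lower in phase 3 than in fed rats, and the rats' means over that list were 9.43 to 9.98 in phase 3 and 9.35 to 9.68 in fed rats. Slc7a9, the partner of Slc3a1, fell by 0.85 ± 0.177 in phase 3 against fed (adjusted p = 0.00122). Its phase 3 mean of 5.34 was within the range of the olfactory receptor genes, so the size of that fall is not exact.

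Slc7a10, the carrier Asc-1 of alanine, serine and cysteine that is known as a surface marker of white adipocytes, was decided by 1 rat. It had 7.06, 7.33, 7.01 and 7.24 in the fed rats, 6.11, 6.14, 6.03 and 8.59 in phase 2 and 6.51, 5.54, 6.57 and 6.44 in phase 3. Apart from phase 2 rat 4, every fasted rat was below every fed rat. With all rats the differences were -0.44 ± 0.448 in phase 2 and -0.90 ± 0.448 in phase 3 against fed and passed in neither (adjusted p of 0.543 and 0.12). Without phase 2 rat 4 they were -1.07 (adjusted p = 0.00203) and -0.90 (adjusted p = 0.00149), the second with the same size and a smaller spread. Between the phases the difference was -0.45 with all rats and 0.17 without phase 2 rat 4, and passed neither way (adjusted p of 0.502 and 0.585). Slc7a11, the cystine and glutamate exchanger xCT, was dim, at 3.44, 3.72, 4.00 and 3.67 in the fed rats, 3.39, 3.61, 3.62 and 3.89 in phase 2 and 3.79, 3.31, 4.15 and 3.60 in phase 3, and the groups overlapped throughout.

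Start site sequences were read for the genes of the heteromers that rose and for the carriers that hold a motif of the amino acid response. RefSeq windows of assembly GRCr8, 250 bases before to 50 after a start site, were found for 43 of the 55 genes, and the motifs were chosen with the differences known. Capitals mark any match on either strand to the composite site of ATF4 and C/EBP factors (TGATGNAA, in 3.98% of all 33469 windows), the E-box CACGTG (6.42%), the FOXO site TGTTTAC (3.78%) or the cAMP response element TGACGTCA (1.83%), none of which overlapped another here. The windows of Slc7a6 and Slc38a1 lie inside the spans of their genes, and of the 2 windows listed for Slc3a2 the first is shown.
Slc3a2, chr1:215048015-215048314, minus strand: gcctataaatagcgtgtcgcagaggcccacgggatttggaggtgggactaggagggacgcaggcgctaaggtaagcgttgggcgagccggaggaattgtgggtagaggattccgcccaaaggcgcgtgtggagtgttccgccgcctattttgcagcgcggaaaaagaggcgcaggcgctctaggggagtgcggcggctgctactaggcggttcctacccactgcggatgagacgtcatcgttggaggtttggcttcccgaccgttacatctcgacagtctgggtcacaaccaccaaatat
Slc7a8, chr15:32212666-32212965, minus strand: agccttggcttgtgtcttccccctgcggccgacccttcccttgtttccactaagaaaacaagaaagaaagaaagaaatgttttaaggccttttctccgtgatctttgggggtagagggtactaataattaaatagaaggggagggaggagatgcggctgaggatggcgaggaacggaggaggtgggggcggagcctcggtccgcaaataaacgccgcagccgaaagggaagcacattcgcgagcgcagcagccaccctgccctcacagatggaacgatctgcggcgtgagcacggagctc
Slc7a6, chr19:50993256-50993555, plus strand: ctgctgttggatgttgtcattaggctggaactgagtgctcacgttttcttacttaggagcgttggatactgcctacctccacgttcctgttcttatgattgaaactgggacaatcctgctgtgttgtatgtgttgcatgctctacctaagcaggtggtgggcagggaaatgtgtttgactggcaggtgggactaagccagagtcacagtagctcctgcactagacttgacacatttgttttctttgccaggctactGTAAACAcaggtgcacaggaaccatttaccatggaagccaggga
Slc7a5, chr19:66872363-66872662, minus strand: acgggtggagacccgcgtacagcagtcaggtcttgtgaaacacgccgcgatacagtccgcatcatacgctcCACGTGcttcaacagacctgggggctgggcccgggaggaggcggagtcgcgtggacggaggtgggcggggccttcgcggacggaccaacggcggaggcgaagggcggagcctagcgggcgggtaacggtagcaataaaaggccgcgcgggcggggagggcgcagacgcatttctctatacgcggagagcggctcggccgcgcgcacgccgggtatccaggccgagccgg
Slc38a1, chr7:129681352-129681651, minus strand: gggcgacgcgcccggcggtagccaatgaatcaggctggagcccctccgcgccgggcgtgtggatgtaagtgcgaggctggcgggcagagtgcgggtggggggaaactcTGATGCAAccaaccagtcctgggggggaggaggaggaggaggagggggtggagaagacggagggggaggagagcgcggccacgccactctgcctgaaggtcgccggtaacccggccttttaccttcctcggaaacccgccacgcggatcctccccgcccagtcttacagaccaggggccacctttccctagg
Slc7a1, chr12:11664238-11664537, plus strand: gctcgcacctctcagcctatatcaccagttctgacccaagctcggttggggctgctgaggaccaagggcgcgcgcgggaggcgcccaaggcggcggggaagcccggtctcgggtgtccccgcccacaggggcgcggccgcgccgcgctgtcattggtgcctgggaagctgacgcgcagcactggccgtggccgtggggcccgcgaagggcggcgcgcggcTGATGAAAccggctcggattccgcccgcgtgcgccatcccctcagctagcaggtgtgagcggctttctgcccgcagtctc
Slc1a4, chr14:98761513-98761812, minus strand: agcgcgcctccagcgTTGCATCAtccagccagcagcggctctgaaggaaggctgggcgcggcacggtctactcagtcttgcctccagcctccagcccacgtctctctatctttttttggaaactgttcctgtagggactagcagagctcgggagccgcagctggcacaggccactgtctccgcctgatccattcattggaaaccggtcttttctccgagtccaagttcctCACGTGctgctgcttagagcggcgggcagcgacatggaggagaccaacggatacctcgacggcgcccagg
Neither Slc3a2 nor Slc7a8 held a match in these windows. Slc7a5 held the E-box at bases 72 to 77 and Slc7a6 the FOXO letters at bases 257 to 263, counted from 1 at the 5′ end. The composite site stood in 3 of the 43 genes, at bases 109 to 116 in Slc38a1, 221 to 228 in Slc7a1 and 16 to 23 in Slc1a4. These genes, a system A carrier, the cationic carrier CAT1 and the neutral exchanger ASCT1, passed in none of the 3 comparisons. The cAMP response element stood in 1 of the 43 genes, Slc38a6, at bases 115 to 122 of a window not shown. Slc38a6 was called higher in phase 3 against fed. E-boxes stood in 7 of the 43 genes. Of these, Slc43a1, Slc7a5, Slc1a6 and Slc1a7 were higher and Slc36a1 and Slc38a7 lower in phase 3 than in fed rats, and Slc1a4 was not called. In that comparison 50.9% of the 55 genes and 45.4% of all genes were called. The motif shares above count windows, of which the 43 genes had 47. A link between a motif and the differences was not tested.

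In family 1, which holds the glutamate carriers and the neutral exchangers, Slc1a5 fell furthest. Slc1a5 is ASCT2, a sodium-dependent exchanger that takes up glutamine, and stood at 11.03, 11.28, 11.16 and 11.33 in the fed rats, 10.49, 10.17, 10.52 and 10.55 in phase 2 and 8.54, 8.04, 8.39 and 8.28 in phase 3. The 3 groups did not overlap. Slc1a5 fell by 0.77 ± 0.118 in phase 2 against fed (1.70-fold, adjusted p = 0.000308) and by 2.89 ± 0.118 in phase 3 against fed (7.40-fold, adjusted p = 4.47e-10), and phase 3 rats were lower than phase 2 rats by 4.34-fold (-2.12 ± 0.118, adjusted p = 5.4e-08).

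The glutamate carriers of family 1 took other courses. Slc1a3, known as GLAST from glia, was at 9.92, 9.62, 9.87 and 9.90 in the fed rats, 10.32, 10.31, 10.20 and 10.43 in phase 2 and 9.97, 9.45, 9.08 and 9.28 in phase 3. It was higher in phase 2 than in fed rats by 0.49 ± 0.151 (adjusted p = 0.0292), a call lost on leaving out any of fed rats 2, 3 and 4 or of phase 2 rats 1, 2 and 4 (adjusted p up to 0.0843), and lower in phase 3 than in phase 2 (-0.87 ± 0.151, adjusted p = 0.000617). In phase 3 against fed Slc1a3 differed by -0.38 ± 0.151, which did not pass (adjusted p = 0.0511). That difference passed as lower in 5 of 21 alternatives, with adjusted p of 0.000778 to 0.196 across them all. Slc1a1, the neuronal and renal carrier EAAT3 of glutamate and cysteine, was 5.03 ± 0.324 in phase 2 and 5.71 ± 0.131 in fed rats (SD, n = 4 each), a fall of 0.68 ± 0.207 (adjusted p = 0.0267), and averaged 5.69 ± 0.49 in phase 3, 0.66 ± 0.207 above phase 2 (adjusted p = 0.0271). The phase 2 mean of Slc1a1 lay below the olfactory level of 5.658 and the other means barely above it, so these sizes are not exact. Both calls of Slc1a1 were lost on leaving out phase 2 rat 1 or 2. The first was also lost on leaving out fed rat 1 or 2, and the second on leaving out phase 3 rat 3 or 4 and in a fit of only these groups (adjusted p up to 0.0884). Slc1a7, the retinal carrier EAAT5, was at 5.51, 5.62, 5.52 and 5.87 in the fed rats, 5.69, 5.80, 5.92 and 5.90 in phase 2 and 6.40, 6.44, 6.41 and 6.89 in phase 3, and rose by 0.90 ± 0.119 in phase 3 against fed (adjusted p = 2.15e-05). Its fed mean of 5.63 was within the range of the olfactory receptor genes. Slc1a6, a dim gene, was also called higher in phase 3 (0.34, adjusted p = 0.0261), but not without phase 3 rat 3 or 4 or fed rat 1.

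The proton-coupled carriers of family 36 fell or were not called, and none rose in limma's test. Slc36a2, the carrier PAT2 of glycine, alanine and proline, which is also used as a surface marker of brown and beige adipocytes, had the largest difference of the 55 genes. Its levels were 9.16, 8.95, 9.61 and 9.92 in the fed rats, 9.25, 8.91, 8.70 and 8.76 in phase 2 and 5.72, 4.81, 5.18 and 4.36 in phase 3. Fed and phase 2 rats overlapped, with a difference of -0.50 ± 0.258 that did not pass (adjusted p = 0.187, 0.0747 to 0.443 across alternatives). All phase 3 rats lay far below the others, with measured differences of -4.39 ± 0.258 against fed (adjusted p = 9.86e-09) and -3.89 ± 0.258 against phase 2 (adjusted p = 2.1e-07). The phase 3 mean of 5.02 was within the range of the olfactory receptor genes, so these differences reach down to background, their exact size is not known and no fold is given. Its fall lay at the same step as that of the adipocyte markers, of which 11 of 12 were lower in phase 3 than in phase 2 with a median difference of -1.26. At that step 9 of 11 fibroblast and progenitor markers were also lower and 1 higher, with a median difference of -1.1. So were 6 of 10 T and NK cell markers and 4 of 6 erythroid and platelet markers. Schwann cell and nerve markers were lower for 3 of 5, and mesothelial markers for 3 of 6. Mast cell markers were lower for 2 of 8, and smooth muscle and pericyte markers for 2 of 10. Among macrophage markers 3 of 12 were lower and 3 higher, and among endothelial markers 0 of 9 were lower and 1 higher. Of all genes 15.1% were called lower there. The part of cell composition in the fall of Slc36a2 was not tested. Slc36a1, a carrier of the same amino acids that also works in lysosomes, was 7.15 ± 0.0995 in phase 2 and 7.67 ± 0.0325 in fed rats (SD, n = 4 each) and fell by 0.51 ± 0.0698 (adjusted p = 0.000117). In phase 3 it was 6.92 ± 0.0126, a fall of 0.75 ± 0.0698 from fed rats (adjusted p = 8.49e-07). The smaller step of -0.23 between the phases had an adjusted p of 0.0213 and did not pass with centred arrays, with quantile normalisation, in a fit of only these groups or without phase 2 rat 4, at adjusted p up to 0.13. Slc36a4, which carries proline and tryptophan, and the dim Slc36a3 passed in no comparison.

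Of the 8 sodium-coupled carriers of the Slc38 family, 3 rose and 1 fell in phase 3 against fed, a share near the 45.4% of all genes called. Slc38a2, the system A carrier SNAT2 that many cells raise when amino acids run short, was at 10.72, 11.02, 10.52 and 10.52 in the fed rats, 11.02, 11.00, 10.94 and 10.83 in phase 2 and 11.42, 11.52, 11.56 and 11.65 in phase 3. Phase 2 overlapped with fed (0.25 ± 0.107, adjusted p = 0.107, 0.0116 to 0.279 across alternatives, 3 of them past the threshold), whereas every phase 3 rat was above the other 8, by 0.84 ± 0.107 against fed (1.79-fold, adjusted p = 1.56e-05) and 0.59 ± 0.107 against phase 2 (adjusted p = 0.000852). Slc38a6 rose by 0.62 ± 0.117 in phase 3 against fed (adjusted p = 0.000536), and Slc38a4, a system A carrier best known from liver and dim here, by 0.72 ± 0.137 (adjusted p = 0.000602). The lysosomal carriers went the other way or did not pass: Slc38a7, which exports glutamine from lysosomes, fell by 0.37 ± 0.0992 in phase 2 (adjusted p = 0.0129) and by 0.41 ± 0.0992 in phase 3 (adjusted p = 0.00378) against fed rats, and Slc38a9, the lysosomal arginine sensor, differed by -0.07 and -0.25 (adjusted p of 0.693 and 0.0802).

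Among the cationic carriers of family 7, which need no heavy chain, Slc7a2 rose. Slc7a2, the carrier CAT2 of arginine, lysine and ornithine, was at 8.98, 9.08, 9.03 and 8.96 in the fed rats, 9.34, 9.12, 9.48 and 9.10 in phase 2 and 10.40, 10.20, 10.42 and 10.36 in phase 3. The phase 2 rats all lay above the fed rats, but by 0.24 ± 0.0926, which did not pass (adjusted p = 0.0703, 0.02 to 0.207 across alternatives, 5 of them past the threshold). In phase 3 it was 1.33 ± 0.0926 above fed (2.51-fold, adjusted p = 4.65e-08) and 1.08 ± 0.0926 above phase 2 (2.12-fold, adjusted p = 1.65e-06). Slc7a1, the more widespread carrier CAT1, differed by 0.12 ± 0.155 in phase 3 against fed (adjusted p = 0.564). Slc7a3 was dim and was called higher in both phases against fed, by 0.28 and 0.39 (adjusted p of 0.038 and 0.00309), and the phase 2 call ended in 8 of 20 alternatives, including the removal of any 1 of fed rats 1, 3 and 4 or of the phase 2 rats.

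Family 43 split. Slc43a1, the facilitated carrier LAT3 of large neutral amino acids, was at 8.37, 8.16, 8.72 and 8.19 in the fed rats, 9.28, 8.99, 9.49 and 9.42 in phase 2 and 9.00, 9.15, 8.75 and 9.17 in phase 3. It rose by 0.94 ± 0.143 in phase 2 (1.91-fold, adjusted p = 0.000289) and by 0.66 ± 0.143 in phase 3 (adjusted p = 0.0016) against fed rats, and the phases overlapped. Its relative Slc43a2, LAT4, fell by 0.72 ± 0.109 in phase 3 against fed (adjusted p = 8.09e-05). The phase 2 call of Slc43a2, -0.32 with an adjusted p of 0.0453, ended in 12 of 21 alternatives (adjusted p up to 0.142), including the 3 other scalings and the removal of any 1 of fed rats 1, 2 and 3, phase 2 rats 1, 2 and 4 and phase 3 rat 4. The nucleobase carrier Slc43a3 was at 10.44, 10.72, 10.39 and 10.50 in the fed rats, 11.38, 11.23, 11.54 and 11.36 in phase 2 and 11.82, 11.96, 11.87 and 12.11 in phase 3, with no overlap. It rose by 0.87 ± 0.0974 in phase 2 (adjusted p = 2.38e-05) and by 1.43 ± 0.0974 in phase 3 against fed (2.69-fold, adjusted p = 3.8e-08).

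Of the 16 measured carriers of family 6, which take up substrates with sodium and chloride, 10 were dim. The taurine carrier Slc6a6 was at 9.37, 9.61, 9.62 and 9.46 in the fed rats, 10.58, 10.43, 10.83 and 10.36 in phase 2 and 10.73, 11.01, 10.98 and 10.99 in phase 3. It rose by 1.03 ± 0.109 in phase 2 (2.05-fold, adjusted p = 1.41e-05) and by 1.41 ± 0.109 in phase 3 against fed (2.66-fold, adjusted p = 1.22e-07). Its step of 0.38 between the phases had an adjusted p of 0.0174, and of 0.0591 at the highest, without phase 2 rat 2 or 4, where it did not pass. The serotonin carrier Slc6a4 was at 8.16, 8.36, 7.95 and 7.73 in the fed rats, 6.87, 7.01, 6.74 and 6.97 in phase 2 and 5.96, 6.11, 6.33 and 6.22 in phase 3. It fell by 1.15 ± 0.126 in phase 2 (2.23-fold, adjusted p = 1.8e-05) and by 1.90 ± 0.126 in phase 3 against fed (3.72-fold, adjusted p = 2.79e-08), with no overlap between any groups. Slc6a20a, a proline carrier, and Slc6a19, the neutral carrier of gut and kidney, rose by 0.58 ± 0.156 and 0.45 ± 0.117 in phase 3 against fed (adjusted p of 0.0074 and 0.00597), and Slc6a19 was dim. The creatine carrier Slc6a8 differed by -0.06 ± 0.118 (adjusted p = 0.691), and the GABA carrier Slc6a13 varied most within phase 3, at 6.32 ± 0.987 (SD, n = 4).

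The dim genes were called higher more often than lower in phase 3 against fed. Of the 21, 6 were higher and 0 lower in phase 3 against fed in limma's test, and 9 were higher and 0 lower at an unadjusted p under 0.05. Of all 4618 dim genes of the table, 11.2% were called higher and 2.84% lower. The share of all dim genes at an unadjusted p under 0.05 was not worked out in any comparison. In phase 3 against phase 2, 1 of the 21 was called higher and 0 lower, with 5 higher and 1 lower at an unadjusted p under 0.05. In that comparison 2.99% of all dim genes were called higher and 1.36% lower. There Slc38a5 (-0.30 in both) and Slc6a15 (-0.20 and -0.21) were called lower with quantile normalisation and cyclic loess, at adjusted p of 0.0194 and 0.019 for Slc38a5 and 0.0489 and 0.0456 for Slc6a15. In phase 3 against fed without phase 3 rat 3, 3 of the 21 were higher, namely Slc38a4, Slc6a19 and Slc7a3, and 7.47% of all dim genes. Without phase 3 rat 2, 9 of the 21 were higher in that comparison, and 14.6% of all dim genes. The calls of Slc1a6, Slc6a5 and Slc7a12 ended without phase 3 rat 3. Those of Slc6a5 and Slc7a12 ended in 13 and 12 of 20 alternatives in all. For both these included the removal of any 1 of fed rats 2, 3 and 4, phase 2 rat 3 and phase 3 rat 1, for Slc6a5 also that of fed rat 1 or phase 2 rat 2, and for Slc7a12 that of phase 2 rat 4. Slc38a4 was called higher in phase 3 than in phase 2 as well, but not without phase 2 rat 1 or phase 3 rat 4, nor with quantile normalisation or cyclic loess, at adjusted p up to 0.0698. In phase 2 the dim gene Slc6a17 was called (0.32, adjusted p = 0.0478), and that call ended in 13 of 20 alternatives, including the removal of any 1 of fed rats 1, 3 and 4, phase 2 rats 1 and 3 and phase 3 rats 1 and 4.

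**Figure D3:**
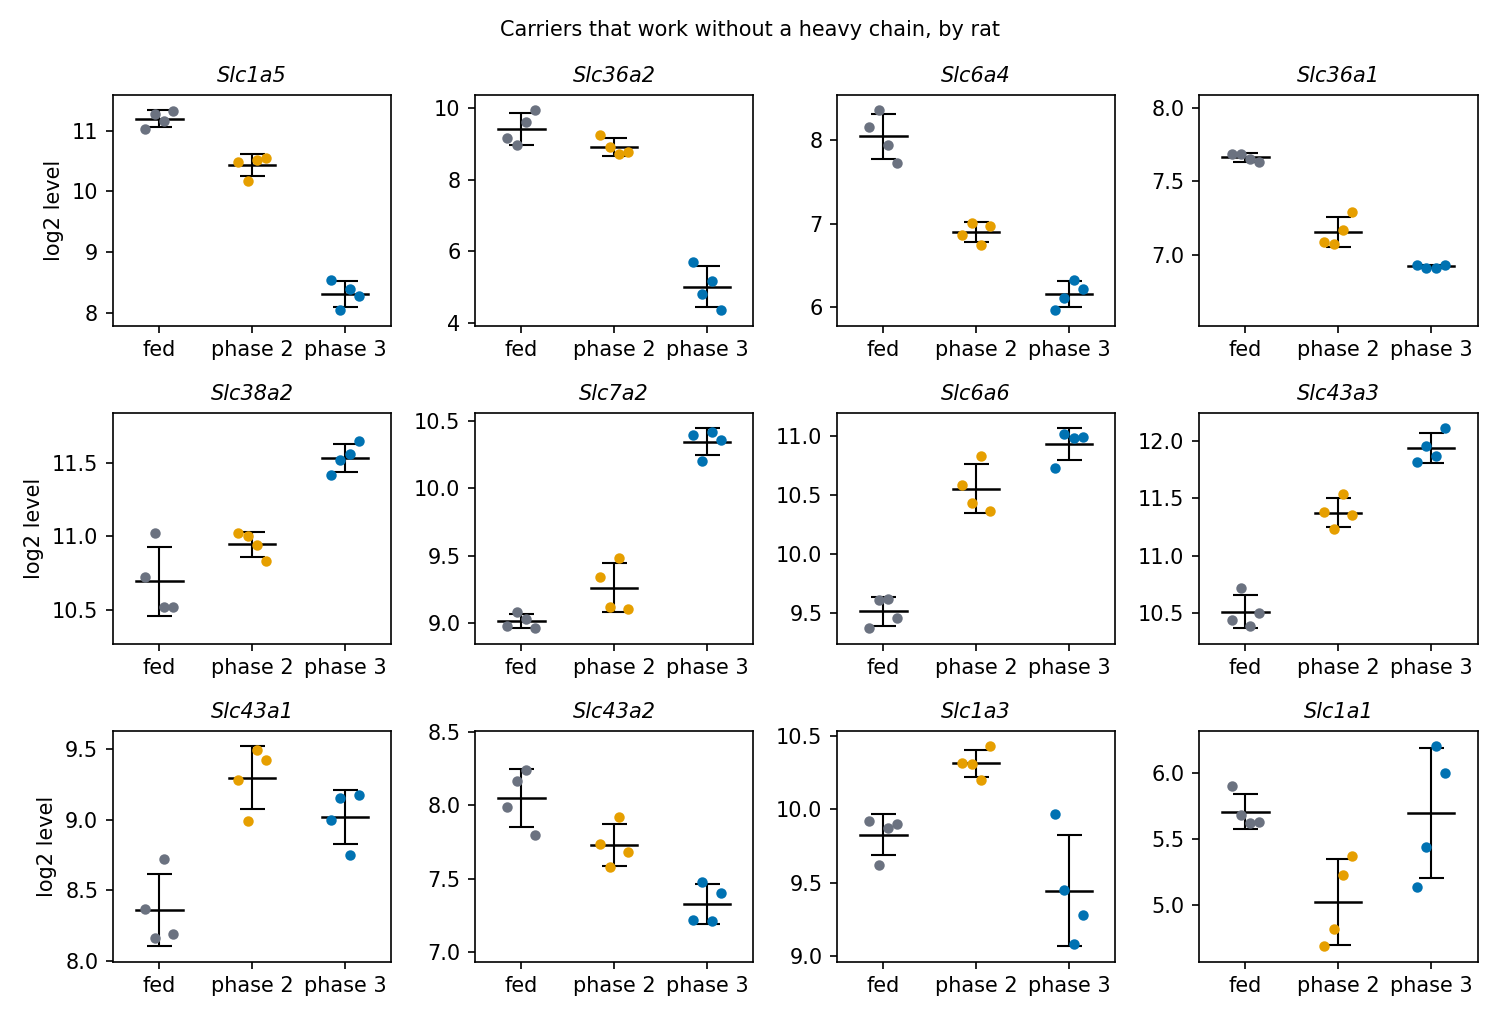
Log2 levels of 12 carriers that need no heavy chain in fed, phase 2 and phase 3 rats, with the 4 rats of each group as points, the mean as a line and the SD as bars. Slc36a2 stays near the fed level in phase 2 and stands at 4.36 to 5.72 in phase 3, whereas Slc1a5 and Slc6a4 are lower at each step and Slc6a6 and Slc43a3 higher.

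Set side by side, the steps gave 12 genes that were called at both. Slc3a2, Slc7a8, Slc43a3 and Slc6a6 were higher at each step, and Slc1a5, Slc36a1, Slc43a2, Slc6a4, Slc7a15 and Slc7a7 lower at each. Slc1a3 was higher and then lower, and Slc1a1 lower and then higher. Step calls of Slc7a7, Slc43a2, Slc1a3, Slc36a1, Slc6a6 and Slc1a1 were lost in some alternatives, as given above, so their patterns are less firm. Another 8 genes were called only in the later step and against fed: Slc7a2, Slc7a5, Slc7a6, Slc7a6os, Slc38a2, Slc38a4 and Slc1a7 as higher and Slc36a2 as lower. In all 31 of the 55 genes were called in at least 1 comparison and 24 in none, among them the glutamate carrier Slc1a2, the carriers Slc38a1 and Slc6a9 (GlyT1, for glycine) and Slc7a1. Of all genes, 25.2% were called in phase 2 against fed, 45.4% in phase 3 against fed and 27.9% in phase 3 against phase 2. The shares of all genes with the patterns above, or called in at least 1 comparison, were not worked out. These counts therefore describe the 55 genes only.

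Other amino acid and peptide carriers and partners were set beside them as a list of 17 measured genes. In phase 2 against fed 2 rose and 1 fell, in phase 3 against fed 4 rose and 2 fell, and in phase 3 against phase 2 there were 1 higher and 2 lower. These shares lay below the 25.2%, 45.4% and 27.9% of all genes called. Slc16a10, the carrier TAT1 of aromatic amino acids, led each comparison: it was at 7.54, 7.43, 7.67 and 7.43 in the fed rats, 9.39, 9.49, 9.47 and 9.43 in phase 2 and 8.83, 8.39, 8.04 and 8.20 in phase 3. It rose by 1.93 ± 0.135 in phase 2 (3.80-fold, adjusted p = 3.52e-07) and by 0.85 ± 0.135 in phase 3 against fed (adjusted p = 0.000123), and was lower in phase 3 than in phase 2 (-1.08 ± 0.135, adjusted p = 4.38e-05). The lysosomal histidine and peptide carriers Slc15a3 and Slc15a4 fell by 0.63 and 0.43 in phase 3 against fed (adjusted p of 0.00111 and 0.00803). Calls near the threshold were those of Arl6ip5, a binding partner of the glutamate carrier EAAT3, which fell in phase 2 against fed (-0.31 ± 0.104, adjusted p = 0.0422), and of the peptide carrier Slc15a2, which rose (0.55 ± 0.19, adjusted p = 0.0478). Nedd4l, a ubiquitin ligase that removes several carriers from the membrane, was 0.37 ± 0.11 higher in phase 3 than in phase 2 (adjusted p = 0.0202). The calls of Arl6ip5 and Slc15a2 ended in 13 of 21 alternatives each (adjusted p up to 0.137 and 0.121). For both these included the removal of any 1 of the fed rats, phase 2 rats 1 and 2 and phase 3 rat 4, and for Slc15a2 also that of phase 2 rat 3 or 4 or phase 3 rat 1. That of Nedd4l ended in a fit of only these groups and on leaving out phase 2 rat 1 or any of phase 3 rats 1 and 4 (adjusted p up to 0.0705).

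Cells switch on the amino acid response through the factor ATF4 when amino acids are short or the ER is stressed. Atf4 itself and the kinases Eif2ak3 and Eif2ak4, which act before it, were counted with other genes of the response. Together they made a list of 14 measured amino acid response genes. Of these 3 rose and 3 fell in phase 2 against fed, 8 rose and 3 fell in phase 3 against fed, and 7 were higher and 2 lower in phase 3 than in phase 2, where 25.2%, 45.4% and 27.9% of all genes were called. The whole table thus also held the most calls in phase 3 against fed. Atf4 itself was at 10.10, 10.18, 9.89 and 9.83 in the fed rats, 9.99, 9.89, 10.04 and 9.97 in phase 2 and 10.87, 11.15, 11.17 and 11.18 in phase 3, a rise of 1.09 ± 0.0979 against fed (2.13-fold, adjusted p = 5.68e-07). Ddit4, an inhibitor of mTORC1, was 2.22 ± 0.296 higher in phase 3 than in phase 2 (adjusted p = 7.44e-05), and Trib3, a pseudokinase of the same response, rose by 1.15 ± 0.227 in phase 2 against fed (adjusted p = 0.00185). Nupr1, a stress-induced chromatin protein, rose by 0.70 ± 0.15 in phase 2 against fed (adjusted p = 0.00321). Asns, the asparagine synthetase that is a classical ATF4 target, went the other way: it was at 9.48, 9.58, 9.70 and 9.61 in the fed rats, 9.87, 9.70, 9.70 and 9.79 in phase 2 and 7.64, 8.02, 8.27 and 8.21 in phase 3, and fell by 1.56 ± 0.118 in phase 3 against fed (2.94-fold, adjusted p = 1.05e-07). Atf5 fell by 0.44 ± 0.101 in phase 2 and by 0.99 ± 0.101 in phase 3 against fed (adjusted p of 0.00561 and 1.97e-06).

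**Figure D4:**
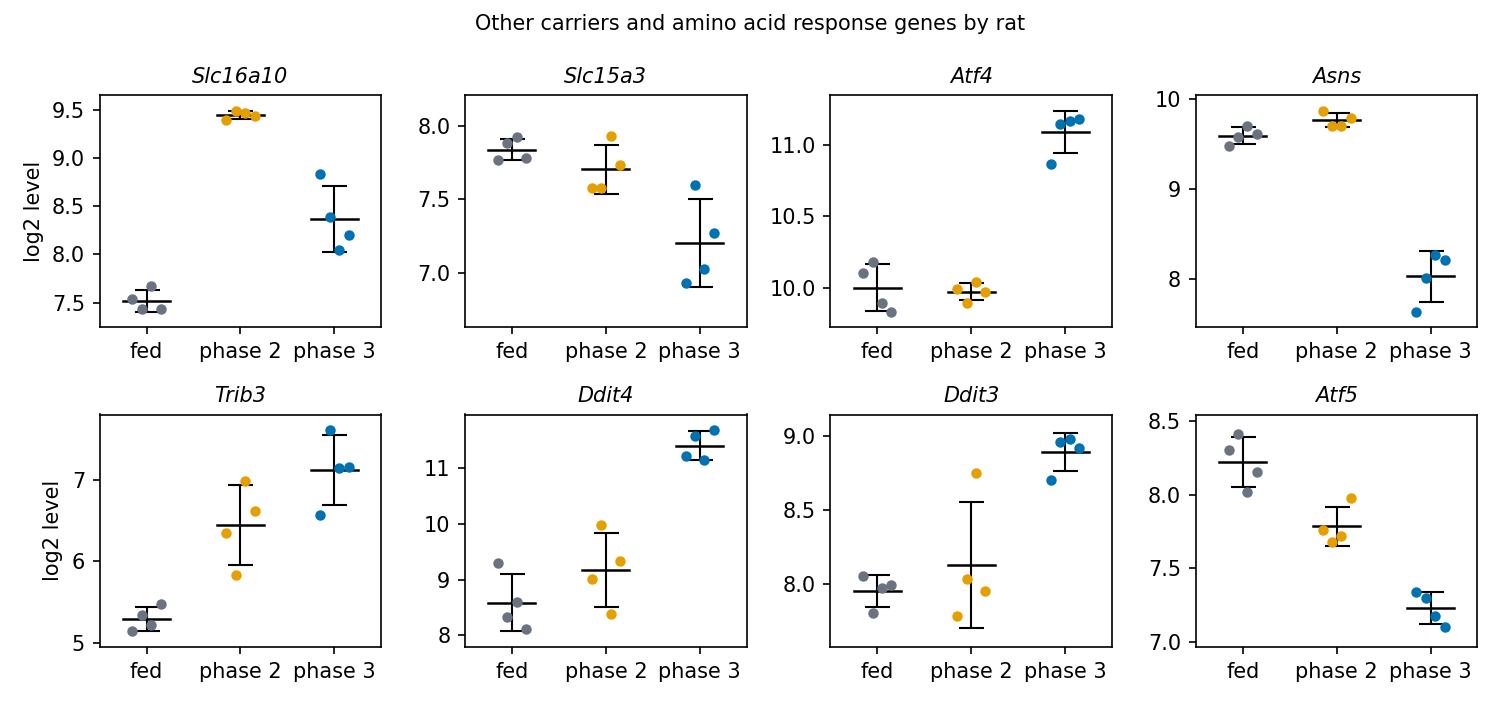
Log2 levels of the carriers Slc16a10 and Slc15a3 and of 6 amino acid response genes in fed, phase 2 and phase 3 rats, with the 4 rats of each group as points, the mean as a line and the SD as bars. Atf4 is higher and Asns lower in all 4 phase 3 rats than in any other rat, and Slc16a10 is highest in phase 2.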

How the data were processed

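Each array was deposited as 1 log2 expression value for every probe set. The authors computed these with RMA, a method that corrects background, normalises quantiles and summarises probes, and with GCOS and Expression Console 1.1, per the submitters' processing notes. Of the labels, the protocol for RNA extraction mentions liver, whereas titles, source names and tissue labels name adipose tissue. Of 29215 probe sets, 15310 had 1 platform gene, 323 had several and 13582 had none. Where a gene had several, the brightest by its mean across arrays was kept, which left 14506 genes. All 55 genes described here matched RefSeq by Entrez number.

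Groups came from the sample titles. The 12 arrays entered 1 model with a mean per group, fitted with lmFit and eBayes (limma 3.58.1, R 4.3.3), and p-values were adjusted over the 14506 genes. The fit was tested on simulated data. Python 3.11.15, pandas 2.3.3 and matplotlib 3.10.9 prepared tables and plots. The transporter genes and the lists were chosen with earlier results of these data known. Rat-by-rat levels were given, by rule, for the 14 largest differences among called genes whose groups did not overlap in a comparison, and always for Slc3a2, Slc7a5, Slc7a8, Slc7a10, Slc7a11, Slc38a2, Slc1a5 and Slc36a2. From the 2 lists of other genes the rule named up to 3 with the smallest adjusted p in a comparison. Rat-by-rat levels of Slc1a3, Slc16a10, Atf4 and Asns were added after their values were seen. Alternatives were 3 other scalings, a filter on the dimmest 40% of genes, the mean of probe sets, all probe sets tested together, a trended robust prior, fits of only the groups compared, the replicate number as a block, and leaving out each rat. Scan dates and batches were not used here. The number of arrays limits the precision.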

Additional observations from a re-analysis of the deposited data

Results flagged for a closer look

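Among 165 combinations of gene and group, 10 held a rat whose distance to the nearest other rat exceeded Dixon's 95% critical share of the range of its group. Chance alone flags about 1 in 20 such groups of 4. Slc7a10 had 2 of them: phase 2 rat 4 at 8.59 stood above the other phase 2 rats (6.03 to 6.14), and phase 3 rat 2 at 5.54 stood below the others (6.44 to 6.57). In phase 3, Slc1a7 was high in rat 4 (6.89, others 6.40 to 6.44), Slc36a4 was low in rat 3 (7.33, others 7.58 to 7.61) and Slc6a6 was low in rat 1 (10.73, others 10.98 to 11.01). In phase 2, Slc1a5 was low in rat 2 (10.17, others 10.49 to 10.55) and Slc3a2 was high in rat 3 (11.45, others 11.28 to 11.30). In fed rats, Slc1a3 was low in rat 2 (9.62, others 9.87 to 9.92), Slc7a7 was low in rat 4 (7.64, others 7.79 to 7.80) and Slc7a8 was low in rat 4 (8.55, others 8.86 to 8.89). The causes were not tested.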

How the results depend on the processing

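Counts of called transporter genes stayed within 1.5 times the reported count in most alternatives. With centred arrays, rises were 13 in place of 8 in phase 2 against fed and 19 in place of 12 in phase 3 against phase 2. Without the dimmest 40% of genes, rises in phase 3 against fed were 12 in place of 19, since fewer of the 55 were tested. Leaving out 1 rat gave 5 to 9 rises and 6 to 9 falls in phase 2 against fed, 16 to 22 and 9 to 11 in phase 3 against fed, and 10 to 16 and 7 to 8 in phase 3 against phase 2. Of the called genes, 11 of 16, 25 of 28 and 15 of 20 in these comparisons passed in every alternative in which they were tested. Rats with the same replicate number showed no clear pairing. Their deviations correlated between -0.155 and 0.188, 4 of 12 pairs were over 0.1, and 2 of 12 rats correlated best with their own number. Such correlations cannot show whether same-numbered rats were matched or handled together. With the replicate block 14, 28 and 21 genes were called in the 3 comparisons, against 16, 28 and 20 without it.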
